A study of Homo sapiens with 16 samples.

Results

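The genes described here encode the proton pump of lysosomes, the vacuolar ATPase, and the cathepsin proteases. Members were the protein-coding genes whose symbol begins with ATP6V or ATP6AP, or consists of CTS, 1 letter and at most 1 digit, and which appear in all 4 of the authors' deposited tables. The rule used no fold change, but presence in all 4 tables depends on a gene's counts. It found 35 of the 19344 genes that appear in all 4 tables (13800 of them protein-coding). They are 11 genes of the V1 sector, 7 of the V0 sector, the accessory subunits ATP6AP1 and ATP6AP2, 13 cathepsins, and 2 genes, ATP6V1FNB and ATP6AP1L, that match by symbol but are not subunits of the pump. The base mean, the authors' mean of normalised counts over the 2 groups compared, was at least 100 in all 4 tables for 26 members and lower in at least 1 table for 9.

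The vacuolar ATPase hydrolyses ATP in its cytosolic V1 sector and drives protons through its membrane V0 sector. The acid it makes in lysosomes lets cathepsins, which are made as inactive precursors, mature and degrade proteins, and both gene families are among the classic targets of the MiT/TFE transcription factors. In bone, the same pump and cathepsin K serve osteoclasts in resorbing matrix, while osteosarcoma cells belong to the osteoblast lineage.

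The samples are poly(A) RNA-seq libraries of U2OS, an osteosarcoma cell line with intact p53, in 4 groups of 4, 16 in all. A control siRNA (siControl) or one against RFX7 (siRFX7), a transcription factor that the p53 response engages, had been transfected. Each was then kept for 24 h with the solvent DMSO or with 10 µM Nutlin-3a, which blocks MDM2 and thereby stabilises p53. All groups are thus U2OS cells carrying a siRNA: siControl with DMSO, siControl with Nutlin-3a, siRFX7 with DMSO and siRFX7 with Nutlin-3a. The whole study rests on 1 cell line, the labels do not say whether the 4 replicates came from separate cultures, and p-values therefore measure only the spread between these samples.

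The files hold 4 tables of the authors' DESeq2 comparisons and no value of a single library, so each value below is a group comparison with its standard error (SE) over 4 libraries against 4. In units of 1e6 normalised counts, the base means of a table summed to between 27.9 and 35.3. By the authors' deposited tables, RFX7 itself stood at 18.6% of its siControl level under DMSO and at 19.4% under Nutlin-3a. The p53 targets CDKN1A and MDM2 were higher with Nutlin-3a in siControl, by 3.24 ± 0.04 and 2.89 ± 0.04 (SE) on the log2 scale. Osteoblast lineage genes were present, with base means from 37048 to 39039 for COL1A1 and from 283 to 432 for RUNX2, whereas SP7 and IBSP appear in no table. With siRFX7 these markers moved in both directions: SPP1 was called lower, at -0.87 under DMSO and -0.60 under Nutlin-3a, while COL1A1 (0.38 and 0.27) and SPARC (0.22 and 0.19) were called higher. SPP1 was also higher with Nutlin-3a, at 0.45 in siControl and 0.72 in siRFX7. Of 10 osteoclast or macrophage markers, ACP5, TNFRSF11A, OCSTAMP and DCSTAMP appear in no table, CALCR, CD68, CD14 and PTPRC reached a base mean of 5.21 at most, and the list summed to 245 to 402. Most of that sum was MMP9, which was lower with siRFX7 under Nutlin-3a, at -0.57, and higher with Nutlin-3a in siControl, at 0.66 on the log2 scale. CSF1R, the other marker of this list in the knockdown tables, was called higher with siRFX7 under Nutlin-3a, at 0.63, with base means of 32.9 to 37.7. All 3 epithelial markers were present, and CDH1 was higher with siRFX7, by 0.85 under DMSO and 1.10 under Nutlin-3a on the log2 scale. Their sum ranged from 19669 to 24379 between tables, nearly all KRT8, and the part of these changes in the results below was not tested.

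Most members had more than 100 normalised counts, and for subunits with several isoforms 1 isoform had the largest share in every table. To set genes side by side, a level in each group was derived from the base mean and the fold changes of the authors' deposited tables and divided by the length of the gene's exons, in normalised counts per kb. This length takes the union of all annotated exons, so it understates genes whose long transcripts are rare. Of the members, CTSZ, a lysosomal carboxypeptidase, was highest on this scale, at 3025 in siControl with DMSO, 3587 in siControl with Nutlin-3a, 2635 in siRFX7 with DMSO and 2985 in siRFX7 with Nutlin-3a. ATP6V0E1, the small e subunit of V0, followed with 2019 to 2519 across groups, then CTSB with 1794 to 2217. The lowest member was ATP6AP1L, between 1.84 and 2.94. For CTSZ the siRFX7 group lay below siControl within each treatment, whereas the levels of CTSB in the DMSO groups (1802 and 1794) were within 1 SE of each other.

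**Figure D1:**
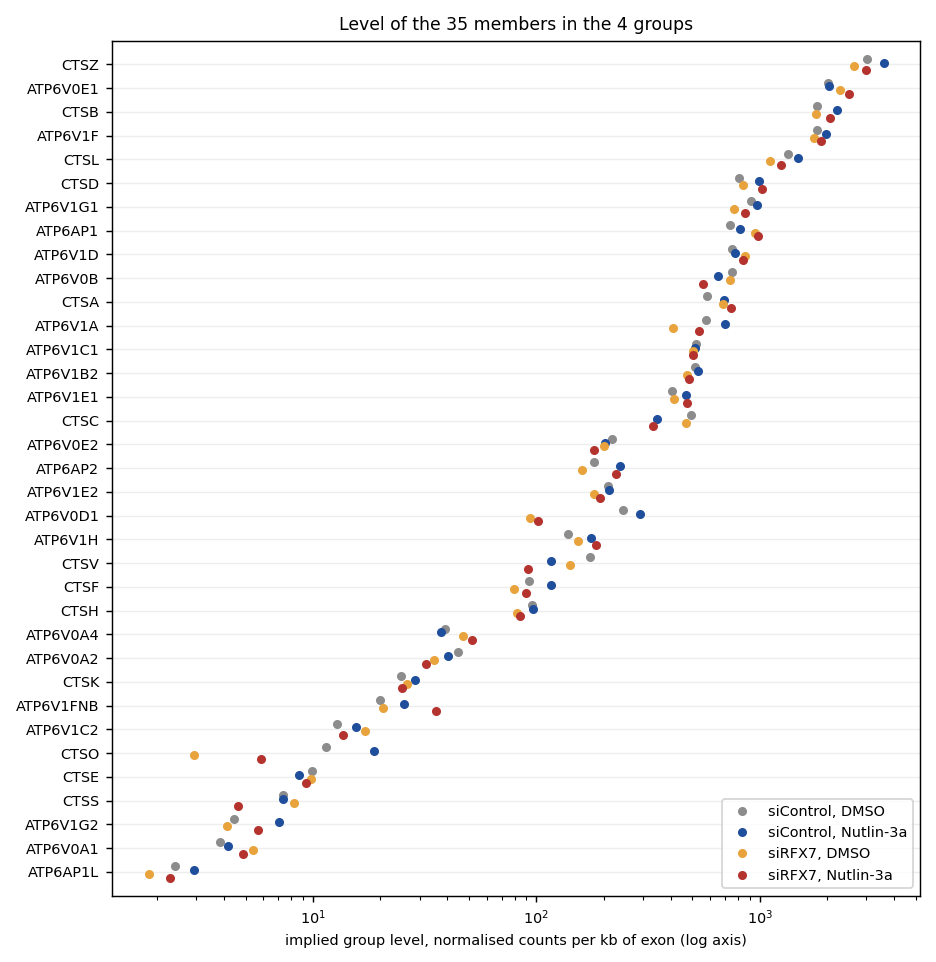
Level of each of the 35 members in the 4 groups, in normalised counts per kb of exon on a log axis, sorted by the mean over tables. Each point is 1 group of 4 libraries, derived from the authors' tables, with no error bar because single libraries were not analysed here. Most genes have their 4 points close together, while the siRFX7 points of ATP6V0D1 (93.3 and 102) and CTSO (2.93 and 5.84) lie far left of their siControl points (245 and 291, 11.4 and 18.7).

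By base mean per kb, ATP6V1C1 made 97.0% to 97.3% of subunit C, ATP6V1G1 made 99.3% to 99.5% of subunit G and ATP6V0E1 made 90.6% to 92.6% of subunit e. Subunit E was more evenly split, with 67.5% to 70.3% from ATP6V1E1 and 29.7% to 32.5% from ATP6V1E2, an isoform best known from testis. For subunit a, which places the pump in a membrane, the main isoform lies outside the symbol rule: TCIRG1, the a3 isoform of osteoclasts and lysosomes, made 64.3% to 69.4%. ATP6V0A2 (13.3% to 15.8%) and ATP6V0A4 (13.8% to 19.99%, the widest range of any isoform) came next, and ATP6V0A1 was lowest, at 3.84 to 4.16 per kb.

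ATP6V0C, which encodes the c subunit of the proton-carrying ring, is not a member because it appears only in the Nutlin-3a tables, where the authors' base means were 5.47 and 3.81. In GENCODE 29, 1080 of its 1498 exon bases are overlapped by the genes AC093525.1 and AC093525.2 on the same strand, and the part of this overlap in its low count was not tested. Overlaps also touch members: CTSD shares 1304 of 3126 exon bases with AC068580.4 on its own strand, and CTSA shares 1668 of 5856 with genes on the opposite strand. ATP6V1E1 has a processed pseudogene, ATP6V1E1P1, that was counted separately with base means of 237 to 287, so its counts may be split.

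The first question was how these genes differed between siRFX7 and siControl, without and with p53 activation. The groups differ in their siRNA, so loss of RFX7 and other effects of that siRNA cannot be told apart here. ATP6V0D1, the d subunit that couples the V0 ring to the central stalk, fell to 38.0% of its siControl level under DMSO and to 35.1% under Nutlin-3a. CTSO, a little studied cysteine cathepsin, fell to 25.7% and 31.3%, at far lower counts. ATP6V1A, the catalytic A subunit, fell to 71.2% and 76.5%. In bulk RNA, fewer cells with a transcript and less of it per cell cannot be told apart. ATP6V0D1 and CTSO were the only members, 2 of 35, called with a change of 0.5 or more on the log2 scale. Of all genes, 8.4% were called with a change of that size under DMSO and 6.98% under Nutlin-3a.

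Over all 35 members, 16 were called under DMSO (authors' DESeq2 Wald test, adjusted p under 0.05), 4 higher and 12 lower, against 37.4% of all 19511 genes in that table. Under Nutlin-3a 18 were called, 4 higher and 14 lower, against 32.6% of all 20335 genes. Of all genes, 19.9% were called higher and 17.5% lower under DMSO, 17.2% and 15.4% under Nutlin-3a. Of protein-coding genes at a base mean of 100 or more and with an annotated 3′ UTR, 28.0% were higher and 22.4% lower under DMSO. Under Nutlin-3a these shares were 25.7% and 20.4%. The members' median was -0.05 with DMSO and -0.14 with Nutlin-3a on the log2 scale, against -0.00 and -0.01 over all genes. Well expressed genes are called more often: of those at a base mean of 100 or more, 49.7% and 45.3% were called, and 57.7% and 61.5% of the 26 members at that level in all tables.

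**Figure D2:**
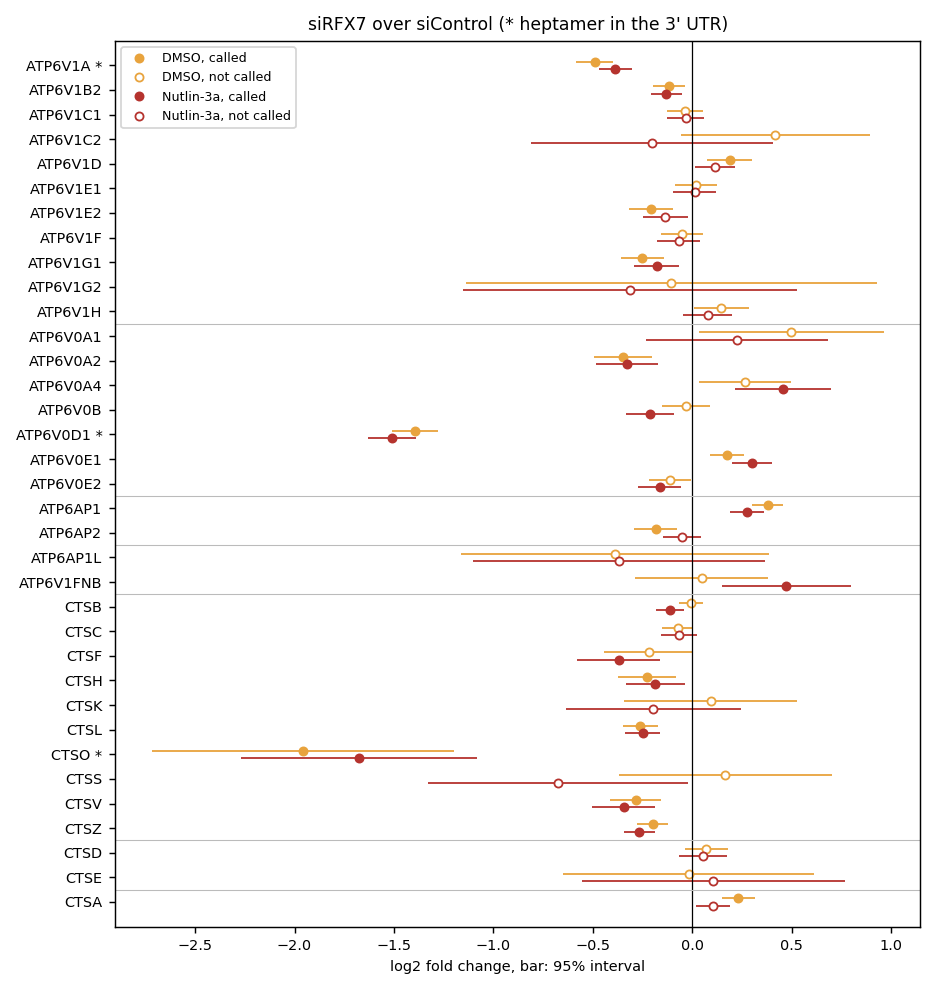
Log2 fold change of siRFX7 over siControl for each member, under DMSO (orange) and Nutlin-3a (red), with 95% intervals from the authors' standard errors and filled points for an adjusted p under 0.05. Lines separate V1, V0, accessory subunits, genes matched by symbol only, and cysteine, aspartic and serine cathepsins. ATP6V0D1 and CTSO stand at -1.40 and -1.96 under DMSO while no other member lies below -0.50 there.

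ATP6V0D1 (ENSG00000159720, chromosome 16, 67438014 to 67481237, minus strand) had levels of 2015 normalised counts in siControl with DMSO, 2390 in siControl with Nutlin-3a, 766 in siRFX7 with DMSO and 839 in siRFX7 with Nutlin-3a. Both siRFX7 groups were thus below both siControl groups. The authors' deposited tables gave a log2 fold change of -1.40 ± 0.06 (SE; DESeq2 adjusted p 1.28e-120) under DMSO and -1.51 ± 0.06 (adjusted p 3.31e-128) under Nutlin-3a. Among protein-coding genes at a base mean of 100 or more, this was the 11th lowest log2 fold change of 11315 under DMSO and the 14th lowest of 11379 under Nutlin-3a.

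CTSO (ENSG00000256043, chromosome 4, 155924118 to 155953917, minus strand) had levels of 33.6 and 55.1 normalised counts in siControl with DMSO and with Nutlin-3a, against 8.65 and 17.3 in siRFX7. The siRFX7 groups were again below both siControl groups, but each level rests on few reads. The authors' deposited tables put its log2 fold change at -1.96 ± 0.39 (SE; DESeq2 adjusted p 3.34e-06) under DMSO and -1.68 ± 0.30 (adjusted p 3.84e-07) under Nutlin-3a.

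ATP6V1A (ENSG00000114573, chromosome 3, 113747019 to 113812056, plus strand) had 2946 and 3570 normalised counts in siControl and 2099 and 2732 in siRFX7, each pair giving DMSO and then Nutlin-3a. Here siRFX7 was below siControl within each treatment, though siRFX7 with Nutlin-3a lay near siControl with DMSO. The authors' deposited tables gave -0.49 ± 0.05 (SE; DESeq2 adjusted p 3.31e-23) and -0.39 ± 0.04 (adjusted p 1.23e-18).

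ATP6V0D1, CTSO and ATP6V1A are also the only members whose annotated 3′ UTR holds the 7 letters GTATCTA, in any protein-coding transcript of GENCODE 29. The 7 letters were taken from an earlier scan of 3′ UTRs against these same fold changes, so the match is a description of these data and not independent of them. The sites are shown as 30 bases of the transcript strand, 5′ to 3′, with the 7 letters in capitals. They lie at chr16:67438231-67438260 (minus strand) for ATP6V0D1, chr4:155925517-155925546 (minus strand) for CTSO and chr3:113810941-113810970 (plus strand) for ATP6V1A, on GRCh38.
ATP6V0D1: cagccgctgatGTATCTAagaagcatgtca
CTSO: tctgagatggcGTATCTAtcggaaggattt
ATP6V1A: aaattaattttGTATCTActgataacagaa

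The 3 sites share the capital letters and little of the sequence around them. They start at base 279 of the 509-base 3′ UTR of ATP6V0D1 in its longer form, at base 501 of 1918 in CTSO and at base 1525 of 2629 in ATP6V1A. In all, 8.57% of members carry the 7 letters, against 7.64% of 19145 genes with an annotated 3′ UTR.

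Across all protein-coding genes at a base mean of 100 or more and with an annotated 3′ UTR, the 1003 carriers had a median log2 fold change of -0.14 under DMSO and 47.5% of them were called lower, against 19.9% of the 10282 other genes. Under Nutlin-3a the median was -0.10 and 41.5% of 1014 carriers were called lower, against 18.3% of 10332. Genes with only 6 adjoining letters of the 7 (GTATCT or TATCTA) did not show this excess: 18.6% and 15.9% of them were called lower. The 7 letters were chosen from these same fold changes, so this contrast is not independent of that choice. Among members, 14 carry only such a part. Of these, 6 (42.9%) passed the threshold as lower in DMSO and 7 (50%) with Nutlin-3a present, and none was called higher. Both shares lie above those of all genes with only a part and near those of the carriers, but they rest on 14 genes. None of these called changes reached 0.5 in size. CTSS, which holds such a part, had -0.67 ± 0.33 (SE) with Nutlin-3a present and was not called. With Nutlin-3a, 32.2% of carriers and 32.8% of other genes were called lower in siControl, and 26.9% and 33.03% in siRFX7. The sequence of the siRNA was not given in the sources used here, so its match to these sites was not tested.

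**Figure D3:**
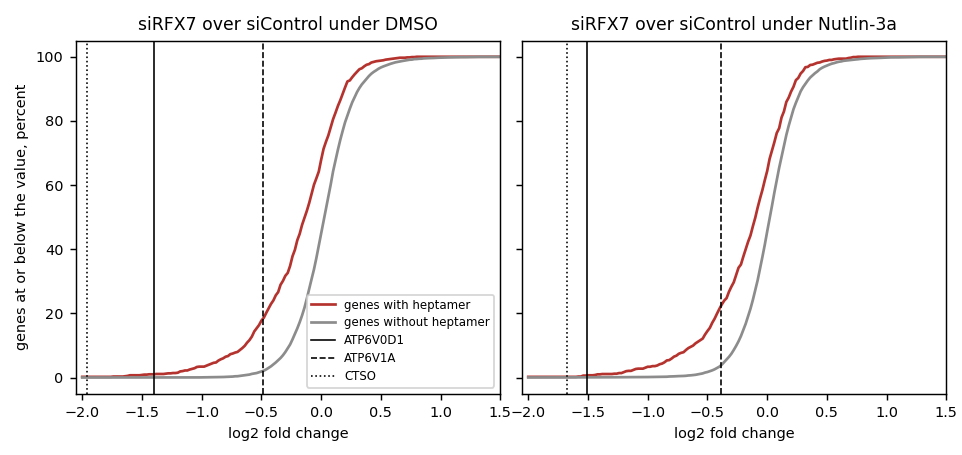
Cumulative share of protein-coding genes at a base mean of 100 or more by their log2 fold change with siRFX7, under DMSO (left) and Nutlin-3a (right), for genes with the 7 letters in the 3′ UTR (red) and without (grey). Vertical lines mark ATP6V0D1 (solid), ATP6V1A (dashed) and CTSO (dotted), and the carriers' curve lies left of the other one, with medians of -0.14 and 0.03 under DMSO. CTSO is drawn for its value only, since its base mean is below 100. The 7 letters were chosen from these same fold changes, so the distance between the curves is not an independent result.

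Without the 3 carriers, 13 of 32 members (40.6%) were called under DMSO, 4 higher and 9 lower. Under Nutlin-3a 15 (46.9%) were called, 4 higher and 11 lower. Of all genes, 37.4% and 32.6% were called, and of the well expressed genes above 49.7% and 45.3%. The members' share lay between these values under DMSO and just above both under Nutlin-3a. Lower calls made 28.1% and 34.4% of the 32 members, against 17.5% and 15.4% of all genes. Higher calls made 12.5% in each, against 19.9% and 17.2%. None of the called changes in these 32 members reached 0.5 on the log2 scale in size. These members are described next by the part of the pump or the class of protease.

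In the V1 sector, ATP6V1B2, the B subunit that alternates with A in the ATP-hydrolysing head, fell in the authors' deposited tables by 0.12 ± 0.04 (SE) under DMSO and by 0.13 ± 0.04 under Nutlin-3a. ATP6V1G1, a stator subunit, fell by 0.25 ± 0.06 and by 0.18 ± 0.06. The stator isoform ATP6V1E2 fell by 0.21 ± 0.06 under DMSO, and its value under Nutlin-3a, -0.14 ± 0.06, missed the threshold (DESeq2 adjusted p 0.055). The rotor subunit ATP6V1D rose by 0.19 ± 0.06 under DMSO, and its value under Nutlin-3a, 0.11 ± 0.05, missed the threshold (adjusted p 0.0727). ATP6V1C1, ATP6V1E1, ATP6V1F and ATP6V1H were called in neither knockdown table. For ATP6V1C1, the main C isoform that bridges stator and head, the 95% interval under DMSO ran from -0.13 to 0.05, which leaves room for small changes only. The rare isoforms ATP6V1C2 and ATP6V1G2, with base means under 50, were not called and had wide intervals, from -1.14 to 0.93 for ATP6V1G2 under DMSO.

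In the V0 sector, ATP6V0A2, the a2 isoform of the Golgi and endosomes, fell in both of the authors' deposited tables, by 0.35 ± 0.07 (SE) and by 0.33 ± 0.08. ATP6V0E1 rose by 0.17 ± 0.04 and 0.30 ± 0.05, whereas its minor paralog ATP6V0E2 fell under Nutlin-3a, by 0.16 ± 0.06. Under DMSO, ATP6V0E2 had -0.11 ± 0.05 (DESeq2 adjusted p 0.0839). ATP6V0B, the c″ subunit of the proton-carrying ring, fell under Nutlin-3a by 0.21 ± 0.06 and stood at -0.03 ± 0.06 under DMSO. ATP6V0A4, the a4 isoform known from kidney, rose under Nutlin-3a by 0.46 ± 0.12 and had 0.27 ± 0.12 under DMSO (DESeq2 adjusted p 0.0611). ATP6V0A1 was not called, with 0.50 ± 0.24 and 0.22 ± 0.23. The antisense gene ATP6V0E2-AS1, which is no member, was called lower in both tables, at -0.60 and -0.58. The kit was stranded but the counting setting is not given in the sources used here, so its reads and those of ATP6V0E2 may not be fully apart.

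Of the accessory subunits, ATP6AP1, which assists assembly of the pump, had the highest called value of any member under DMSO. Its levels were 3578 normalised counts in siControl with DMSO, 3980 in siControl with Nutlin-3a, 4656 in siRFX7 with DMSO and 4818 in siRFX7 with Nutlin-3a, so both siRFX7 groups were above both siControl groups. The authors' deposited tables gave 0.38 ± 0.04 (SE; DESeq2 adjusted p 1.31e-19) and 0.28 ± 0.04 (adjusted p 7.12e-09). ATP6AP2, also known as the prorenin receptor, fell by 0.18 ± 0.06 under DMSO and had -0.05 ± 0.05 under Nutlin-3a. Of the genes matched by symbol only, ATP6V1FNB was higher under Nutlin-3a, by 0.47 ± 0.16 (adjusted p 0.0149) against 0.05 ± 0.17 under DMSO, and ATP6AP1L was called in neither table.

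The cysteine cathepsins, the papain-like proteases of the lysosome, were called lower in part with siRFX7. Under DMSO 5 of 10 were called lower and none higher, against 17.5% of all genes called lower. Under Nutlin-3a 7 of 10 were called lower, against 15.4% of all genes, and all 10 log2 fold changes were negative. Besides CTSO, the endopeptidase CTSL fell in both of the authors' deposited tables, by 0.26 ± 0.05 (SE) and by 0.25 ± 0.05, with DMSO given first. CTSV, the close paralog of CTSL, fell by 0.28 ± 0.07 and by 0.34 ± 0.08. CTSZ fell by 0.20 ± 0.04 and by 0.27 ± 0.04, and the aminopeptidase CTSH fell by 0.23 ± 0.07 and by 0.19 ± 0.08. CTSF, at -0.37 ± 0.11, and CTSB, at -0.11 ± 0.04, were called under Nutlin-3a and not under DMSO. Under DMSO, CTSF had -0.22 ± 0.11 (DESeq2 adjusted p 0.122) and CTSB had -0.01 ± 0.03. CTSC, which activates serine proteases of immune cells, CTSK and CTSS were called in neither table.

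Neither the aspartic nor the serine cathepsins were called lower. CTSD, the main aspartic protease of lysosomes, was called in neither knockdown table, with 95% intervals of -0.04 to 0.18 and -0.06 to 0.17. CTSE, at base means of 19.4 to 24.8, was not called either. CTSA, a serine carboxypeptidase that also protects the lysosomal enzymes GLB1 and NEU1, rose under DMSO by 0.23 ± 0.04 (SE; DESeq2 adjusted p 6.86e-07), per the authors' deposited table. Under Nutlin-3a CTSA had 0.10 ± 0.04 (adjusted p 0.0533). CTSL and CTSV are similar in sequence, and how the authors' counting treated reads that fit both is not stated.

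The knockdown effects under DMSO and under Nutlin-3a come from tables that share no library. Of the 35 members 31 had the same sign in both, and the 12 called in both all did, 2 higher (ATP6AP1 and ATP6V0E1) and 10 lower. Those 10 were ATP6V0A2, ATP6V0D1, ATP6V1A, ATP6V1B2, ATP6V1G1, CTSH, CTSL, CTSO, CTSV and CTSZ. Across members, which are not independent replicates, Pearson's r was 0.87, and 0.56 over the 32 members without the 7 letters. The plot of knockdown effects shows the pairs of points side by side.

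The second question was how these genes respond to p53 activation by Nutlin-3a. Most changes were increases of a modest size. In siControl, CTSB and CTSD rose by about the same amount as the pump genes ATP6V1A and ATP6V0D1, while CTSV and CTSC fell. As a group, the 13 cathepsins had a median log2 fold change of 0.22 there, with 7 called higher and 2 lower. For the 18 V1 and V0 subunits the median was 0.07, with 5 called higher and 1 lower. By the authors' deposited table, 17 of 35 members were called in siControl, 14 higher and 3 lower, against 37.9% of all 23353 genes in that table, of which 18.3% were higher and 19.6% lower. In siRFX7 17 were called, 12 higher and 5 lower, against 39.1% of all 21382 genes, of which 18.7% were higher and 20.3% lower. A size of 0.5 or more was reached by 2 called members in siControl and 4 in siRFX7. Of all genes, 12.3% and 13.2% were called with a change of that size. The members' median was 0.15 in siControl and 0.12 in siRFX7, against 0.01 in both over all genes. At a base mean of 100 or more, 56.3% of all genes were called in either table, and 61.5% and 57.7% of the 26 members, so these shares of calls are near the background.

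**Figure D4:**
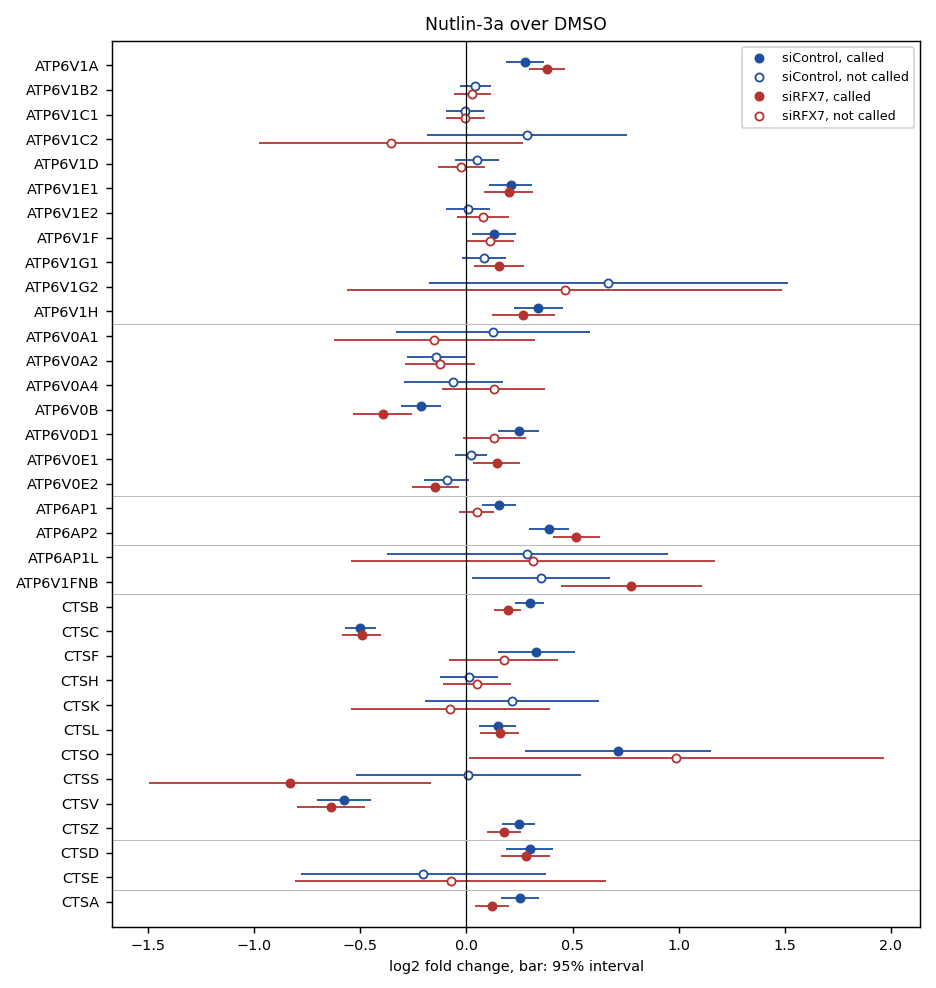
Log2 fold change of Nutlin-3a over DMSO for each member, in siControl (blue) and siRFX7 (red), with 95% intervals from the authors' standard errors and filled points for an adjusted p under 0.05, in the same order as the plot of knockdown effects. Most called points lie between 0.12 and 0.52, CTSV and CTSC lie near -0.6 and -0.5 with either siRNA, and the widest intervals belong to genes with low counts such as CTSO and ATP6V1G2.

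ATP6AP2 had 1730 normalised counts in siControl with DMSO and 2263 with Nutlin-3a, against 1523 and 2183 in siRFX7, so Nutlin-3a was above DMSO with both siRNAs. The authors' deposited tables gave 0.39 ± 0.05 (SE; DESeq2 adjusted p 1.38e-14) and 0.52 ± 0.06 (adjusted p 1.17e-18). ATP6V1A rose by 0.28 ± 0.05 and 0.38 ± 0.04, and ATP6V1H, a regulatory subunit of V1, by 0.34 ± 0.06 and 0.27 ± 0.08. ATP6V1E1 rose by 0.21 ± 0.05 and 0.20 ± 0.06. These 4 genes were called higher with either siRNA.

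Other members outside the cathepsins passed the threshold with 1 siRNA and not with the other, and the differences between siRNAs are given further on. In siControl these were ATP6V0D1 (0.25 ± 0.05, SE), ATP6AP1 (0.15 ± 0.04) and ATP6V1F (0.13 ± 0.05), against 0.13 ± 0.08, 0.05 ± 0.04 and 0.11 ± 0.06 in siRFX7, per the authors' deposited tables. In siRFX7 they were ATP6V1G1 (0.15 ± 0.06), ATP6V0E1 (0.14 ± 0.06), ATP6V0E2 (-0.15 ± 0.06) and ATP6V1FNB. ATP6V1FNB, the gene next to ATP6V1F, had levels of 77.9 and 99.5 normalised counts in siControl and 80.5 and 138 in siRFX7, for DMSO and Nutlin-3a. The authors' deposited tables gave 0.78 ± 0.17 (DESeq2 adjusted p 2.35e-05) in siRFX7 and 0.35 ± 0.17 (adjusted p 0.0803) in siControl. ATP6V0B was the pump gene that fell with both siRNAs, by 0.21 ± 0.05 and by 0.39 ± 0.07. ATP6V0A2, ATP6V0A4, ATP6V1B2, ATP6V1C1, ATP6V1D and ATP6V1E2 were called with neither siRNA, with values from -0.14 to 0.13.

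Among the 13 cathepsins, 7 were called higher and 2 lower in siControl, and 5 higher and 3 lower in siRFX7. Over all genes, 18.3% were called higher and 19.6% lower in siControl, and 18.7% and 20.3% in siRFX7. CTSB had 13388 and 16471 normalised counts in siControl and 13324 and 15261 in siRFX7, for DMSO and Nutlin-3a, which the authors' deposited tables gave as rises of 0.30 ± 0.04 and 0.19 ± 0.03 (SE). CTSD rose by 0.30 ± 0.06 and 0.28 ± 0.06, CTSZ by 0.25 ± 0.04 and 0.18 ± 0.04, CTSA by 0.25 ± 0.05 and 0.12 ± 0.04 and CTSL by 0.15 ± 0.04 and 0.16 ± 0.05. CTSF rose in siControl, by 0.33 ± 0.09, and had 0.18 ± 0.13 in siRFX7. CTSO rose in siControl by 0.71 ± 0.22 (DESeq2 adjusted p 0.00508), and in siRFX7, at a base mean of 9.97, it had 0.99 ± 0.50 (adjusted p 0.107).

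CTSV and CTSC went the other way. CTSV had 814 normalised counts in siControl with DMSO and 545 with Nutlin-3a, and 668 and 429 in siRFX7, so Nutlin-3a was below DMSO with both siRNAs. The authors' deposited tables gave -0.58 ± 0.06 (SE; DESeq2 adjusted p 5.78e-18) and -0.64 ± 0.08 (adjusted p 9.11e-14). CTSC fell from 5608 to 3968 in siControl and from 5329 to 3793 in siRFX7, by 0.50 ± 0.04 and by 0.49 ± 0.05. CTSS, known for antigen presentation, was called in siRFX7, at -0.83 ± 0.34 (adjusted p 0.0378) with a base mean under 32, and had 0.01 ± 0.27 in siControl.

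Across the 4 tables, ATP6V1A, CTSL, CTSV and CTSZ were called in every one. CTSV was lower in all 4, while ATP6V1A, CTSL and CTSZ were lower with siRFX7 and higher with Nutlin-3a. The comparisons share groups in pairs, so these patterns are given side by side only. The members called in no table were ATP6AP1L, ATP6V0A1, ATP6V1C1, ATP6V1C2, ATP6V1G2, CTSE and CTSK, of which only ATP6V1C1 had a base mean above 100.

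The third question was whether the knockdown altered the response to Nutlin-3a. For no member did the response in siRFX7 differ from that in siControl at an adjusted p under 0.05 (two-sided normal test of the difference between DESeq2 log2 fold changes, adjusted over 21339 genes), and 0.937% of all genes did. At an unadjusted p under 0.05 there were 3 of 35: CTSB (-0.10 ± 0.05, SE), CTSA (-0.13 ± 0.06) and ATP6V0B (-0.18 ± 0.09), each lower in siRFX7. That is 8.57% of members, against 6.32% of all genes at this unadjusted threshold and 9.22% of those at a mean base mean of 100 or more. For ATP6V0D1 the difference was -0.12 (95% interval -0.29 to 0.06), so its fold response differed by 0.29 at most within that interval while its level differed strongly. For CTSO the interval ran from -0.80 to 1.35 and left even large differences undetectable at this depth. Responses with the 2 siRNAs come from tables with no common library, and 29 of 35 members had the same sign in both.

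The pathways around the pump and the cathepsins were given by lists of other lysosomal genes. With Nutlin-3a in siControl, 26 of 39 other lysosomal hydrolases and cofactors were called higher and 4 lower, with a median log2 fold change of 0.34 against 0.01 over all genes. In siRFX7 the counts were 25 and 5. For comparison with these and the following lists, 18.3% of all genes were called higher and 19.6% lower in siControl, and 18.7% and 20.3% in siRFX7. FUCA1, which removes fucose from glycoproteins and is a known p53 target, was the highest called hydrolase in siControl, at 0.89 ± 0.07 (SE) in the authors' deposited table, and GLA, the galactosidase lost in Fabry disease, was the lowest, at -0.53 ± 0.06. Of 21 lysosomal membrane proteins and channels, 10 were called higher and 1 lower in siControl, from HGSNAT (0.65 ± 0.06), which acetylates heparan sulfate, to the calcium channel MCOLN1 (-0.21 ± 0.07).

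Of 21 MiT/TFE factors and genes of mTORC1 at the lysosome, 10 were called higher and 1 lower with Nutlin-3a in siControl. TFEC, a MiT/TFE factor, was the highest called gene of the list, which the authors' deposited tables gave as 3.85 ± 0.23 (SE) in siControl and 4.03 ± 0.29 in siRFX7, with base means of 103 and 73.5. RHEB, the GTPase that activates mTORC1, fell by 0.39 ± 0.06 in siControl. Of 11 other genes for assembly and regulation of the pump, 5 were called higher and 2 lower, with CCDC115, an assembly factor, at 0.35 ± 0.06 and OXR1 at -0.29 ± 0.05. Of 7 cathepsin inhibitors and related genes in that table, 3 were called higher and none lower, with CSTA, an inhibitor of cysteine cathepsins, at 0.83 ± 0.08. Of 12 genes of mannose 6-phosphate sorting, the route that delivers cathepsins to lysosomes, 5 were called higher and 3 lower, from the adaptor AP1S1 (0.33 ± 0.04) to the adaptor GGA2 (-0.37 ± 0.04).

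**Figure D5:**
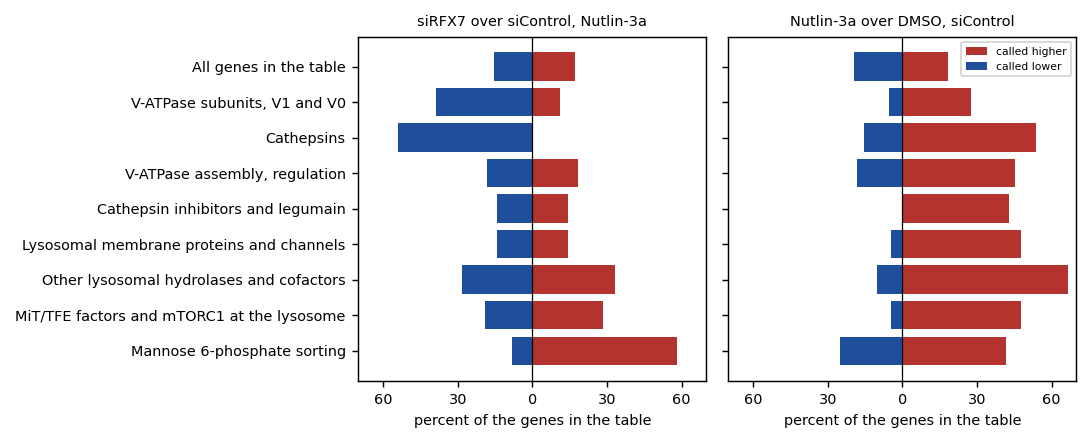
Percent of genes called higher (red, right) and lower (blue, left) with an adjusted p under 0.05, for siRFX7 over siControl under Nutlin-3a and for Nutlin-3a over DMSO in siControl. Rows are all genes of the table, the 18 V1 and V0 subunits, the 13 cathepsins and the lists of other lysosomal genes. For siRFX7, 7 of 13 cathepsins were called lower and none higher, while 13 of 39 other hydrolases were higher and 11 lower.

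With siRFX7 the other lysosomal genes moved in both directions. For comparison with the counts below, 19.9% of all genes were called higher and 17.5% lower under DMSO, and 17.2% and 15.4% under Nutlin-3a. Of the 39 other hydrolases and cofactors, 15 were called higher and 8 lower under DMSO, and 13 and 11 under Nutlin-3a. GALC, the galactosylceramidase that is lost in Krabbe disease, was the lowest, with -1.05 ± 0.07 (SE) and then -0.75 ± 0.06 per the authors' deposited tables. GALC also holds the 7 letters GTATCTA in its 3′ UTR. Of the genes in these lists with an annotated 3′ UTR, 12 carry the 7 letters, and 3 of the 12 were called lower and 2 higher under DMSO, 3 lower and 3 higher under Nutlin-3a.

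Of 12 genes of mannose 6-phosphate sorting, 4 were called higher and none lower with siRFX7 under DMSO, and 7 higher and 1 lower under Nutlin-3a, with M6PR, a receptor of that route, at -0.11 ± 0.04 (SE). Of 21 MiT/TFE and mTORC1 genes, 7 were called higher and 3 lower under DMSO and 6 higher and 4 lower under Nutlin-3a. Of 21 membrane proteins and channels, 4 were called in each direction under DMSO and 3 in each under Nutlin-3a, with LAPTM4A highest there, at 0.31 ± 0.04. Of 11 assembly and regulation genes, 1 was called higher and 2 lower under DMSO and 2 in each direction under Nutlin-3a. NCOA7 was highest there, at 0.22 ± 0.06, and was also called higher under DMSO, at 0.13 ± 0.05. Like GALC, it holds the 7 letters GTATCTA in its 3′ UTR. Of 7 cathepsin inhibitors and related genes, 1 was called higher and 2 lower under DMSO and 1 in each direction under Nutlin-3a, the higher one being LGMN, a protease that processes cathepsin precursors, at 0.14 ± 0.05.

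The genes named next were each the highest or lowest called of their list for siRFX7 under Nutlin-3a, so their sizes are extremes by choice. The medians of the lists of other lysosomal genes in that comparison ran from -0.06 to 0.13. RPTOR, the scaffold that brings mTORC1 to the lysosome, rose with siRFX7 by 0.79 ± 0.05 (SE) under DMSO and 0.71 ± 0.04 under Nutlin-3a, and LAMTOR2, part of the Ragulator complex that contacts the pump, fell by 0.48 ± 0.06 and by 0.50 ± 0.06, all in the authors' deposited tables. SORT1, a sorting receptor for lysosomal proteins, rose by 0.54 ± 0.04 and 0.52 ± 0.04. CSTB, an inhibitor of cysteine cathepsins, fell by 0.46 ± 0.03 and by 0.43 ± 0.05. CLCN7, the chloride-proton exchanger of lysosomes, had -0.34 ± 0.05 under DMSO and -0.34 ± 0.06 under Nutlin-3a. TCIRG1, the main a subunit isoform, fell by 0.26 ± 0.07 and by 0.29 ± 0.08.

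Promoters were searched because both gene families are known for the CLEAR element, the binding motif of MiT/TFE factors. A higher share of its letters than in all genes was therefore foreseen and is not a new result about these members. RefSeq promoter entries, which run from 250 bases before to 50 after a start site on GRCh38.p14, matched 23 of the 35 members. The 8 letters TCACGTGA, which read the same on both strands, occur in those of 3 members, ATP6V0D1, ATP6V1G1 and CTSA (13.0% of 23 members), against 1.18% of all 27305 genes with an entry and 0.98% of all 35116 promoters of that length. The 23 members have 28 entries, and a gene was counted once if any of its entries held the letters. The shorter TCACGTG, searched on both strands and contained in the 8 letters, occurs in 7 members (30.4%), which adds ATP6V0B, ATP6V0E2, CTSD and CTSF, against 4.49% of genes and 3.71% of promoters. GTTGCCA, a part of the X-box that RFX factors bind, searched on both strands, was found in none of the 23 and in 4.98% of genes and 4.08% of promoters. At that share few of 23 genes would hold it, so finding none does not set the members apart. ATP6V1A and CTSO, both lower with siRFX7, have no promoter entry and were not searched. The promoters with the 8 letters are shown 5′ to 3′ on the gene's strand, with those letters in capitals, at chr16:67481108-67481407 (minus strand), chr9:114587519-114587818 (plus strand) and chr20:45891085-45891384 (plus strand).
ATP6V0D1: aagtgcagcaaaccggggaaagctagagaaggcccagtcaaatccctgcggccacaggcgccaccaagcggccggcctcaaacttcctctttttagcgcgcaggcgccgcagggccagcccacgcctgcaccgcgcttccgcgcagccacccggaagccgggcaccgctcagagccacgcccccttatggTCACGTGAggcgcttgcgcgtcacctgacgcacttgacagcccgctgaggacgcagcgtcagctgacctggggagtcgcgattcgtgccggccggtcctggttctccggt
ATP6V1G1: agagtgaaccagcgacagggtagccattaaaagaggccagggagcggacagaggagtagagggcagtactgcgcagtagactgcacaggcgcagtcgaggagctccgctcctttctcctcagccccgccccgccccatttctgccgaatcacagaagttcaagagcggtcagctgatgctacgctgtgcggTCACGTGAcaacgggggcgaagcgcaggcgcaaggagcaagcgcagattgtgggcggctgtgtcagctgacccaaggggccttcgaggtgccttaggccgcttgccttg
CTSA: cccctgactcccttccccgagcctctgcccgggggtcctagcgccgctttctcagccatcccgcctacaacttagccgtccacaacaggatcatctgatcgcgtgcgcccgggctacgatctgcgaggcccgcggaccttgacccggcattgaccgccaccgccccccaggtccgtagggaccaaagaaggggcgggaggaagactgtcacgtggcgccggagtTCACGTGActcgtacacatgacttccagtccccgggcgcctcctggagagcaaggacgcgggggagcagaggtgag

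The capitals begin 60, 59 and 26 bases before the start site. The 3 genes did not move together: with Nutlin-3a in siControl the authors' deposited table had 0.25 ± 0.05 (SE) for ATP6V0D1, 0.08 ± 0.05 for ATP6V1G1 and 0.25 ± 0.05 for CTSA, and with siRFX7 under DMSO it had -1.40 ± 0.06, -0.25 ± 0.06 and 0.23 ± 0.04. A match describes these letters in this window only and shows no binding.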

How the data were processed

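Poly(A) RNA of 16 U2OS libraries was sequenced, and samples were grouped by their titles. Per the submitters' processing notes, hg38, Trimmomatic 0.39, cutadapt 2.10, SAMtools 1.10, featureCounts 1.6.5 and DESeq2 1.20.0 were used. The aligner and annotation are not given in the sources used here. The base mean is a deposited signal, a mean of normalised counts. Log2 fold changes and their SEs, the Wald statistic (a score) and the p-value and adjusted p-value were deposited by the authors, per the file headers. No count of a single library was analysed here.

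The authors' adjusted p-values (Benjamini-Hochberg over each table) were used as deposited, with calls at an adjusted p under 0.05. No new fit over libraries was made. The direction of the tables was settled by their closure over 19344 genes (SD of the gap 0.00291, against 0.514 if inverted) and by the signs of RFX7, CDKN1A and MDM2. The difference of the Nutlin-3a responses used the root of the summed squared SEs, and was tested on simulated data. Group levels chain the base mean of the siControl Nutlin-3a comparison with the fold changes, and the largest gap of a member to the unused table was 0.02 on the log2 scale. Intervals are 95% normal intervals. Positions, exon lengths and 3′ UTRs came from GENCODE 29 on GRCh38, promoters from RefSeq. Python 3.11.15, pandas 2.3.3, numpy 2.4.6 and scipy 1.17.1 were used.

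Members and lists were chosen with earlier results of these data known. Named are all members, in full those called with a size of at least 0.5 on the log2 scale, and from each list the highest and lowest called gene with a base mean of at least 100 for siRFX7 under Nutlin-3a and for Nutlin-3a in siControl. A gene that this rule names is not reported here. ATP6V1A and CTSC fell just under 0.5 and were described in full after their values were seen. Alternatives covered the thresholds, the filter on base mean, the genes adjusted over, centring on the median, and members with the 7-letter motif.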

Additional observations from a re-analysis of the deposited data

How the results depend on the processing

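Requiring a size of at least 0.5 on the log2 scale as well left 2 members called for siRFX7 under DMSO and 2 under Nutlin-3a (none higher, 2 lower in each), 2 for Nutlin-3a in siControl (1 higher, 1 lower) and 4 in siRFX7 (2 higher, 2 lower). An adjusted p under 0.01, a filter at base mean 100, adjustment over protein-coding genes, subtraction of the median and leaving out the 3 members with the 7-letter motif each kept the 4 counts of called members within 1.5 times and the count of differing responses at 0. Of the named members, an adjusted p under 0.01 lost ATP6V1FNB with siRFX7 under Nutlin-3a (adjusted p 0.0149) and CTSS with Nutlin-3a in siRFX7 (adjusted p 0.0378). No value reversed. Reading the longest 3′ UTR alone found the same 3 carriers. No paired analysis was possible because the tables analysed here hold no value of a single library; for the same reason no replicate was left out in turn, so the influence of 1 library on any value was not tested. Members with base means under 50, such as CTSO, CTSS and ATP6V1G2, have SEs of 0.22 to 0.53 on the log2 scale, and only large changes could pass there.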
